A study of Mus musculus with 2 samples.

Results

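A set of 10 genes of the transforming growth factor beta (TGF-beta) family and its signalling pathway was followed across the leukocytes of brown adipose tissue (BAT). The set holds the ligand genes *Gdf3*, *Gdf15*, *Tgfb1* and *Bmp2*, the receptor genes *Tgfbr1*, *Acvr1b*, *Acvrl1* and *Tgfbr2*, the inhibitor gene *Smad7* and the target gene *Tgfbi*. These 10 were taken by name from the 32285 genes counted. *Gdf3* was selected on its rise in the macrophages of AdipoΔ/Δ mice, so its levels there are a description and support nothing. Each group was 1 library, so every comparison below sets 2 libraries side by side, and no test between groups was possible.

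Ligands of the TGF-beta family are secreted dimers that bring a type II and a type I receptor kinase together on the responding cell. The type I receptor then phosphorylates SMAD proteins, which act in the nucleus, and inhibitory SMADs such as SMAD7 damp the signal. TGF-beta itself is held in a latent complex until integrins or proteases release it. In adipose tissue, macrophages are a known source of TGF-beta1 and of GDF3, a ligand of activin-type receptors that restrains lipolysis in adipocytes.

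The study asked how the immune cells of BAT change when adipocytes can no longer release stored fat. Both libraries came from BAT CD45+ cells of C57Bl/6 male mice with AdipoQ-CreERT2, a tamoxifen-inducible Cre under the adiponectin promoter of adipocytes, and ATGLfl/fl, the floxed *Pnpla2* gene for the lipase ATGL. On age the sources differ, with 16 weeks in the labels and a younger age in the study's text. Control mice were given vehicle and AdipoΔ/Δ mice 200 uL of tamoxifen at 10 mg/ml, in injections 2 days apart over 1 week, with 2 weeks of rest after it. The control mice carried the Cre and the floxed alleles too, so tamoxifen itself and the loss of ATGL cannot be told apart. How many mice were pooled is not given in the sources used here.

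The control library held 2597 barcodes and 11327187 unique molecular identifiers (UMIs, each marking 1 captured transcript), and the AdipoΔ/Δ library 2381 barcodes and 12028844 UMIs. Of these barcodes, 2279 and 2016 were kept as cells, with medians of 3678 and 3942 UMIs, and 4 barcode sequences occurred in both libraries. *Ptprc*, which encodes CD45, had a UMI in 80.4% of the kept cells of each library. *Pnpla2* stood at 37.1 and 42.2 CPM (UMIs of the gene per 1000000 UMIs), which checks nothing about the deletion, since the Cre acts in adipocytes and these cells are leukocytes. Clusters were found jointly without the 76 pathway genes described further on, and cells were called "-like" where their cluster scored highest for the markers of that type. Unnamed cells made up 5.44% of control and 15.1% of AdipoΔ/Δ cells.

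Macrophage-like cells numbered 123 in the control and 407 in the AdipoΔ/Δ library. They comprised 61 and 140 M2-like cells led by *Folr2* and *Pf4*, 49 and 177 matrix cells led by *Lyz1* and *Retnla*, and 13 and 90 lipid-associated cells led by *Cd63* and *Fabp5*. The matrix cells are in the class through their own 6 markers. In them the 10 general macrophage markers summed to 1716 and 1520 CPM, beside 1643 and 2665 CPM in monocyte-like cells. These sums were 17515 and 20844 CPM in M2-like and 12339 and 9498 CPM in lipid-associated cells. Monocyte-like cells numbered 766 and 483, in a Ly6C high cluster led by *Chil3*, a Ly6C low cluster led by *Ace* and a cluster led by *Gngt2* that carried markers of both. In the *Gngt2* cluster the 6 Ly6C high markers summed to 2224 and 2214 CPM and the 7 Ly6C low markers to 1772 and 1172 CPM. Of the macrophage-like class, M2-like cells were the most numerous in the control and matrix cells in the AdipoΔ/Δ library. By UMIs, which set the class levels, matrix cells were the largest part of both, with 276224 and 1356817. M2-like cells held 221008 and 936327 UMIs and lipid-associated cells 30716 and 1172404. A class level can differ between libraries through this mix alone. Median depth was 3330 UMIs in control and 6355 UMIs in AdipoΔ/Δ macrophage-like cells, and 1348 and 11923.5 UMIs in the lipid-associated cells. Levels are CPM, computed from the UMIs summed over the cells of a population. Values in parentheses are exact 95% intervals, Poisson for levels, Clopper-Pearson for shares of cells and conditional binomial for ratios of AdipoΔ/Δ over control, and all cover counting error only.

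*Gdf3* (ENSMUSG00000030117, GRCm38 chromosome 6, 122605403 to 122610087, minus strand) encodes growth differentiation factor 3. Over all kept cells, 24 UMIs were counted in 17 control cells and 392 UMIs in 108 AdipoΔ/Δ cells. In macrophage-like cells, where it was selected, the control library had 1 UMI, or 1.89 CPM (0.048 to 10.6), and the AdipoΔ/Δ library 247 UMIs, or 71.3 CPM (62.7 to 80.7). With a single control UMI, the ratio of 37.6 had an interval from 6.69 to 1492. Without the lipid-associated cells the ratio was 13.4, and with both low-depth unnamed clusters described below counted in it was 15.5. The share of macrophage-like cells with a *Gdf3* UMI was 0.813% (0.0206 to 4.45, 1 of 123 cells) in the control and 9.58% (6.90 to 12.9, 39 of 407 cells) in the AdipoΔ/Δ library. With each cell thinned to 1000 UMIs, which left out 3.25% and 3.93% of cells as too shallow, the expected shares were 0.239% and 3.99%. B cells should lack the gene, and no UMI was found in 262 control B cell-like cells, which allows a share of cells with a UMI of up to 1.15%, or in 92 AdipoΔ/Δ ones, which allows up to 3.26%. Their median depths were 1803 and 2101 UMIs. T cell-like cells held 2 and 1 *Gdf3* UMIs, and NK cell-like cells 0 and 1.

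**Figure D1:**
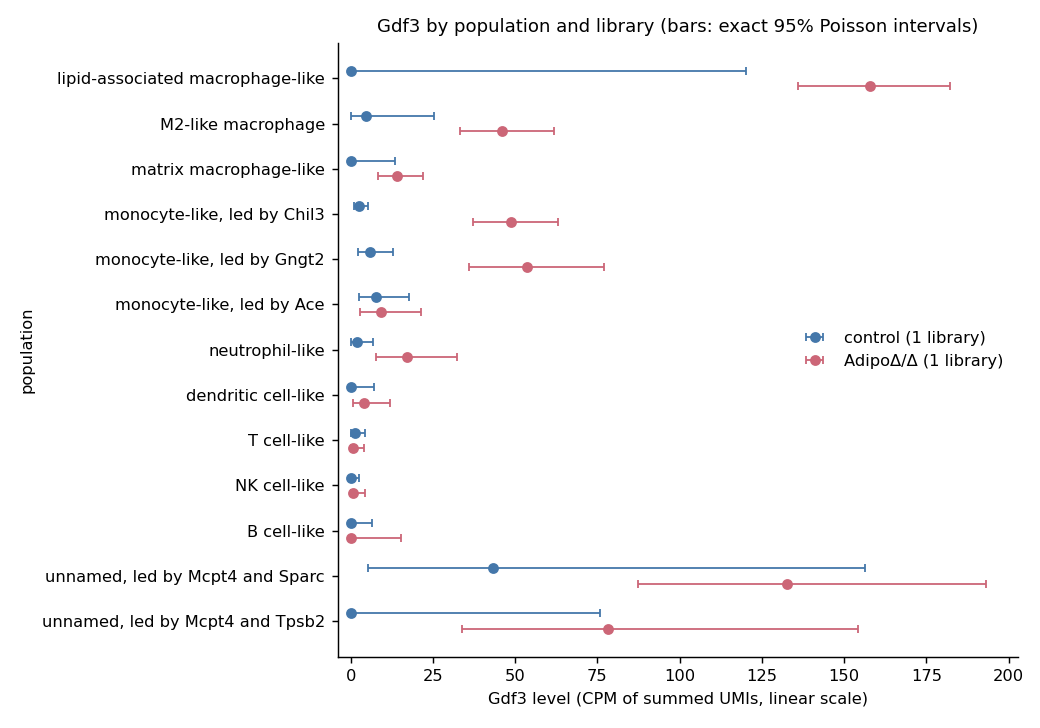
*Gdf3* level (CPM of summed UMIs, linear x axis) in each population (y axis) of the control and AdipoΔ/Δ libraries; points are 1 library each and bars exact 95% Poisson intervals. The AdipoΔ/Δ level runs from 158 CPM in lipid-associated macrophage-like cells to 0 in B cell-like cells, and the control interval of the lipid-associated cells is wide because they number 13.

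Within the macrophage-like class the AdipoΔ/Δ level was highest in the lipid-associated cells. They had 158 CPM (136 to 182) from 185 UMIs, followed by M2-like cells with 45.9 CPM (33.2 to 61.9) from 43 UMIs and matrix cells with 14.0 CPM (8.43 to 21.9) from 19 UMIs, and these intervals did not overlap. Poisson intervals leave out the spread between cells, and these UMIs lay in 20, 10 and 9 cells. In the control library the 3 populations had 0, 1 and 0 UMIs. For the lipid-associated cells, 0 UMIs among 30716 allowed up to 97.7 CPM at 3 counts. The AdipoΔ/Δ level was 1.62-fold that value, and the counting interval of the ratio began at 1.30. For the matrix cells the AdipoΔ/Δ level was 1.29-fold the value at 3 control counts, but the counting interval of the ratio included 1. A single matrix cell held 11 of the 19 UMIs, and without it the level was 5.98 CPM, under the 10.9 CPM that 3 control counts allow. The M2-like ratio of 10.1 (1.73 to 410) rested on 1 control UMI. The lipid-associated cells held 47.2% of all *Gdf3* UMIs of the AdipoΔ/Δ library and 10.4% of all its UMIs.

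*Gdf3* was present in a minority of lipid-associated cells, with many UMIs in each. Of the 90 AdipoΔ/Δ cells, 70 had no *Gdf3* UMI, none had 1 or 2, and 20 had at least 3, with a median of 9.5 and a highest count of 18. The 20 cells thus averaged 9.25 *Gdf3* UMIs. Other members were spread differently over the same 90 cells. *Tgfb1*, with 311 UMIs, reached 75 cells at 4.15 UMIs per cell with a UMI, and *Tgfbr1*, with 67 UMIs, reached 41 cells at 1.63. *Gdf15* was closer to *Gdf3*, with 42 UMIs in 9 cells, or 4.67 per cell with a UMI. The cells with *Gdf3* were deeper than the others. The 20 cells had a median of 13501 UMIs, a mean of 17296 UMIs and a range from 3794 to 40494, and the 70 cells a median of 11509 UMIs, a mean of 11807 UMIs and a range from 958 to 36804. Of the 70 cells, 12 were shallower than any cell with *Gdf3*. The part of depth in the split was not tested. The 8 lipid-associated markers summed to 14665 CPM in the cells with and 13770 CPM in those without *Gdf3*, and the 10 macrophage markers to 10731 and 8983 CPM. The 6 markers of dividing cells summed to 57.8 and 13.3 CPM. Among the other members, *Acvrl1* was higher in the cells with *Gdf3*, at 78.1 CPM beside 72.6 CPM in those without, and *Bmp2* had no UMI. The rest were lower in the cells with *Gdf3*. Among them *Gdf15* stood at 23.1 and 41.1 CPM from 8 and 34 UMIs, and *Tgfbr2* at 31.8 and 42.3 CPM from 11 and 35 UMIs. These differences were not tested.

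**Figure D2:**
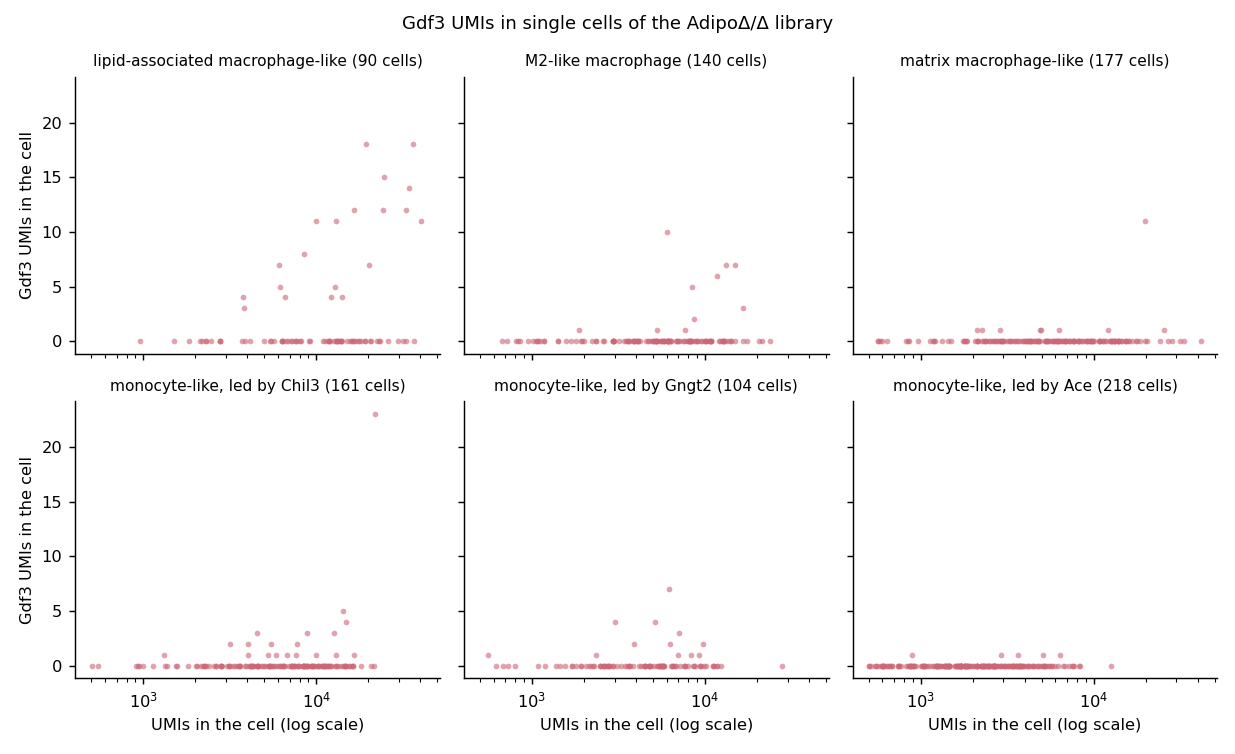
*Gdf3* UMIs of each AdipoΔ/Δ cell (y axis) against the UMIs of that cell (log x axis) in the 3 macrophage-like and 3 monocyte-like populations; each point is 1 cell. Lipid-associated cells are at 0 or at 3 to 18 UMIs, whereas of the 36 monocyte-like cells with *Gdf3* 19 hold 1 UMI, 7 hold 2 and 1 holds 23.

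Monocyte-like cells also had more *Gdf3* in the AdipoΔ/Δ library. The level was 4.06 CPM (2.37 to 6.51) from 17 UMIs in the control and 40.4 CPM (32.6 to 49.6) from 92 UMIs in the AdipoΔ/Δ library, a ratio of 9.94 (5.89 to 17.8). The share of cells with a UMI was 1.57% (0.812 to 2.72) and 7.45% (5.27 to 10.2), and 0.452% and 2.51% expected after thinning. These cells shared libraries with the macrophages in which the gene was selected, so this is not independent of that choice. The difference lay in the clusters led by *Chil3* and *Gngt2*, with 2.38 and 48.8 CPM and with 5.97 and 53.7 CPM. In the cluster led by *Ace* the levels were 7.56 and 9.12 CPM from 5 UMIs in each library, a ratio of 1.21 (0.278 to 5.24). A single *Chil3* cluster cell with 23 UMIs held 25.0% of the *Gdf3* UMIs of the AdipoΔ/Δ monocyte-like cells. It held 39.7% of the 58 in its cluster, and without it the AdipoΔ/Δ level of that cluster was 30.0 CPM. Of the control library's 24 *Gdf3* UMIs, monocyte-like cells held 70.8%.

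Macrophage markers were also higher in the monocyte-like cells of the AdipoΔ/Δ library. All 10 macrophage markers had UMIs in both libraries, and they summed to 1643 CPM in the control and 2665 CPM in the AdipoΔ/Δ library, while the 12 monocyte markers summed to 8076 and 7562 CPM. The 8 lipid-associated markers stood at 333 and 1067 CPM. A UMI of *C1qa*, *C1qb* or *C1qc*, complement genes of macrophages, was found in 4.44% of control and 26.9% of AdipoΔ/Δ monocyte-like cells. In the cells without any of these, *Gdf3* was at 4.28 CPM (2.50 to 6.86) in the control and 44.0 CPM (34.3 to 55.6) in the AdipoΔ/Δ library. In the cells with one it had 0 UMIs in the control and 22 UMIs, or 32.1 CPM (20.1 to 48.6), in the AdipoΔ/Δ library. The intervals of the AdipoΔ/Δ levels with and without a C1q UMI overlap. In the *Chil3* cluster the AdipoΔ/Δ cells with a C1q UMI held 15 *Gdf3* UMIs. The cell with 23 was therefore among the cells without one, which held 70 over the class. Nothing is read from the order of these levels. Macrophage RNA in cells without a C1q UMI was not measured by this split, and its part in the difference was not tested.

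Among the other named classes *Gdf3* was rare. Neutrophil-like cells had 2 UMIs in 1 control cell and 9 UMIs in 2 AdipoΔ/Δ cells, and dendritic cell-like cells 0 and 3 UMIs, the latter in 1 cell. A low-depth unnamed cluster led by *Mcpt4* and *Sparc* held 25 control and 151 AdipoΔ/Δ cells, with 43.3 CPM (5.24 to 156) from 2 UMIs and 133 CPM (87.5 to 193) from 27 UMIs. Its cells had a median of 864 UMIs over both libraries, and in the AdipoΔ/Δ library 18 of them had a single *Gdf3* UMI, 3 had 2 and 1 had 3. This level was second to that of the lipid-associated cells, with overlapping intervals, and more cells had a UMI, 22 against 20. The ratio of 3.07 had an interval from 0.770 to 26.6. The other low-depth cluster, led by *Mcpt4* and *Tpsb2*, held 40 and 73 cells, with 0 UMIs in the control and 8 UMIs, or 78.2 CPM, in 2 AdipoΔ/Δ cells. These cells were in no class, and their values enter the macrophage-like class only where that is stated.

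The genes outside the pathway list whose levels ran most like *Gdf3* over 21 profiles of populations and libraries were *Cstb* (Pearson r = 0.90 of log2(CPM + 10)), *Trem2* (0.85), *Mfsd12* (0.85), *Plin2* (0.84) and *Atp6v0c* (0.84), among 9452 genes ranked. *Cstb* encodes an inhibitor of lysosomal proteases, *Trem2* a lipid-sensing receptor, *Plin2* a coat protein of lipid droplets and *Atp6v0c* a subunit of the proton pump of lysosomes. The profiles share 2 libraries and their depth, and *Trem2* is among the markers that named the lipid-associated cells, so these values describe the profiles and were not tested.

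*Gdf15* (ENSMUSG00000038508, chromosome 8, 70629393 to 70632456, minus strand) encodes a stress-induced ligand that acts on the brain through the receptor GFRAL. It was found in 2 control and 23 AdipoΔ/Δ cells, with 3 and 60 UMIs. Lipid-associated cells held 42 of the 60, at 35.8 CPM (25.8 to 48.4), beside 2 control UMIs in 1 of 13 cells, at 65.1 CPM (7.89 to 235). Within these cells the ratio was 0.550 (0.143 to 4.69), whereas over all macrophage-like cells the levels were 3.79 and 13.9 CPM, a ratio of 3.66 (0.959 to 31.1). With both libraries weighted to one mix of the 3 populations, the class ratio was 0.645, the other direction. Matrix cells had no *Gdf15* UMI in either library, and M2-like cells 0 and 6. In monocyte-like cells 1 control and 10 AdipoΔ/Δ UMIs were counted, 7 of the 10 in the cluster led by *Gngt2*. *Gfral* had no UMI in any kept cell of either library.

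*Tgfb1* (ENSMUSG00000002603, chromosome 7, 25687002 to 25705077, plus strand) encodes TGF-beta1, which controls inflammation and matrix deposition. Of the 4 ligand genes it was the one found in every class, and its highest class level was in monocyte-like cells. There it stood at 404 CPM (385 to 424) in the control and 353 CPM (329 to 379) in the AdipoΔ/Δ library, a ratio of 0.874 (0.802 to 0.951). The cluster led by *Gngt2* was lower in the AdipoΔ/Δ library, at 552 and 404 CPM, a ratio of 0.731 (0.622 to 0.857). The clusters led by *Chil3* and *Ace* had ratios of 0.907 (0.802 to 1.02) and 0.995 (0.824 to 1.20). In macrophage-like cells the direction was the other one, with 174 CPM (140 to 214) and 240 CPM (224 to 257), a ratio of 1.38 (1.11 to 1.73). M2-like and matrix cells had ratios of 1.31 (0.926 to 1.89) and 1.26 (0.932 to 1.74), and lipid-associated cells, with 130 and 265 CPM from 4 and 311 UMIs, one of 2.04 (0.788 to 7.52). The intervals of all 3 populations include 1.

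The largest class ratio of *Tgfb1* was in neutrophil-like cells, with 66.6 CPM (52.0 to 84.0) in the control and 172 CPM (139 to 212) in the AdipoΔ/Δ library, a ratio of 2.59 (1.88 to 3.58). Macrophage markers were higher in the same cells, with sums of 305 and 646 CPM over 10 genes, all with UMIs in both libraries, and the 7 neutrophil markers fewer, with 255938 and 178609 CPM. Their part in the *Tgfb1* difference was not tested. T cell-like cells had 70.5 and 127 CPM, a ratio of 1.80 (1.41 to 2.29). The T cell-like difference lay in the cluster led by *Ly6a* and *Cxcr6*, with 104 CPM (75.3 to 139) and 203 CPM (169 to 242), while the cluster led by *Dapl1* had 62.2 and 60.9 CPM and that led by *Lef1* and *Cd8b1* 54.6 and 69.7 CPM. In the T cell-like class, markers of some other cells rose and those of others fell. The 6 mast cell or basophil markers summed to 1.82 and 296 CPM, with 1 and 5 of them detected, the 7 NK cell markers to 183 and 557 CPM, the 12 monocyte markers to 634 and 1170 CPM and the 10 macrophage markers to 49.2 and 140 CPM. Among the lists that fell, the 7 neutrophil markers summed to 397 and 67.6 CPM and the 8 dendritic cell markers to 232 and 140 CPM. The 5 erythroid markers summed to 84.4 and 15.3 CPM and the 6 fibroblast markers to 52.2 and 1.45 CPM. *Mcpt4* and *Arg1* were among the 10 leading genes of the *Ly6a* cluster, and the part of other cells in the difference was not tested. NK cell-like cells had 101 and 128 CPM, a ratio of 1.26 (1.00 to 1.59). Dendritic cell-like cells had 184 and 187 CPM and B cell-like cells 180 and 158 CPM, with intervals that overlap in both.

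*Bmp2* (ENSMUSG00000027358, chromosome 2, 133552159 to 133562885, plus strand) encodes bone morphogenetic protein 2. It was rare, with 6 control and 21 AdipoΔ/Δ UMIs over all kept cells. Of these, 4 and 13 were in M2-like cells, at 18.1 CPM (4.93 to 46.3) and 13.9 CPM (7.39 to 23.7), a ratio of 0.767 (0.237 to 3.23). Lipid-associated cells had none in either library, which in the AdipoΔ/Δ library allowed up to 2.56 CPM. Monocyte-like, neutrophil-like, dendritic cell-like, NK cell-like and B cell-like cells also had none.

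**Figure D3:**
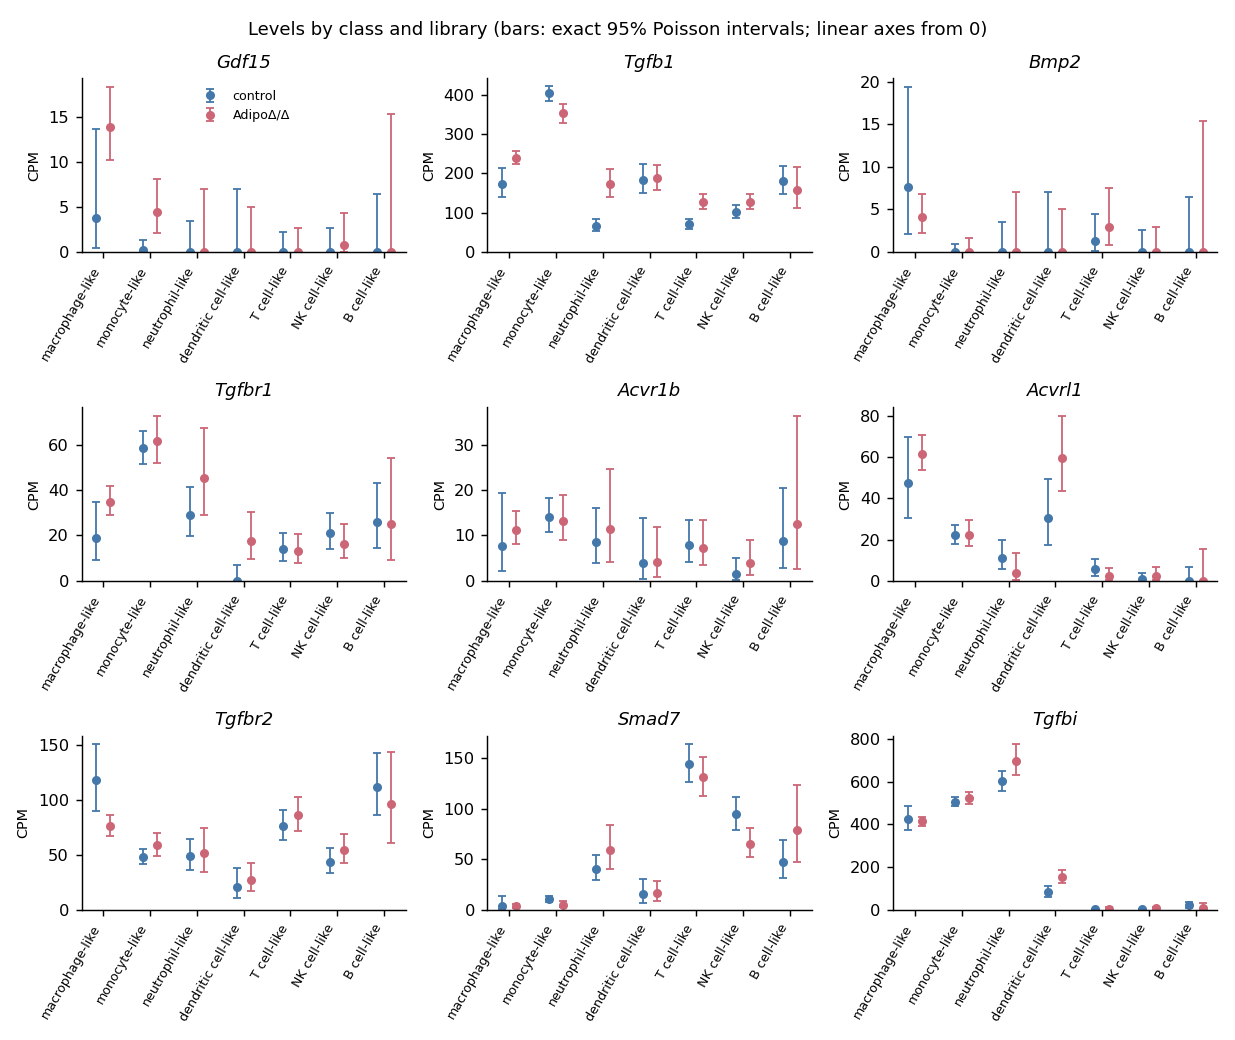
Level (CPM, linear y axes that start at 0) of the 9 members other than *Gdf3* in 7 leukocyte classes (x axis) of the control and AdipoΔ/Δ libraries; bars are exact 95% Poisson intervals. *Tgfb1* is highest in monocyte-like cells, *Smad7* in T cell-like cells, and *Tgfbi* in neutrophil-like, monocyte-like and macrophage-like cells.

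The type I receptor genes differed in where they were found. *Tgfbr1* (ENSMUSG00000007613, chromosome 4, 47353222 to 47414931, plus strand), which encodes the TGF-beta receptor ALK5, was highest in the monocyte-like cluster led by *Ace*, with 169 CPM (139 to 204) and 155 CPM (124 to 192), a ratio of 0.916 (0.683 to 1.23). The cluster led by *Gngt2* had 62.7 and 46.3 CPM and that led by *Chil3* 27.8 and 26.1 CPM. In macrophage-like cells *Tgfbr1* stood at 18.9 CPM (9.08 to 34.8) from 10 UMIs in the control and 34.9 CPM (29.0 to 41.7) from 121 UMIs in the AdipoΔ/Δ library, a ratio of 1.84 (0.969 to 3.94). The AdipoΔ/Δ levels of its populations were 57.1 CPM in lipid-associated, 43.8 CPM in M2-like and 9.58 CPM in matrix cells, and the first 2 have overlapping intervals. Dendritic cell-like cells had 0 UMIs in the control and 13 in the AdipoΔ/Δ library. The AdipoΔ/Δ level was 3.10-fold a floor of 3 counts, and the counting interval of the ratio began at 2.18.

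*Acvr1b* (ENSMUSG00000000532, chromosome 15, 101174067 to 101213684, plus strand) encodes the activin receptor ALK4, and *Acvrl1* (ENSMUSG00000000530, chromosome 15, 101128522 to 101145336, plus strand) the receptor ALK1, which answers to BMP9 and BMP10 in vessels. *Acvr1b* was low in every class, at most 14.1 CPM, and its macrophage-like levels were 7.58 and 11.3 CPM, a ratio of 1.49 (0.536 to 5.72). *Acvrl1* had its highest class levels in macrophage-like cells, with 47.4 CPM (30.6 to 69.9) and 61.8 CPM (53.8 to 70.6), and in dendritic cell-like cells, with 30.4 CPM (17.4 to 49.4) and 59.8 CPM (43.4 to 80.2). The ratios were 1.30 (0.860 to 2.06) and 1.97 (1.09 to 3.73). Monocyte-like cells had a lower level, 22.2 and 22.4 CPM, but held 93 of the 161 *Acvrl1* UMIs of the control library. No *Acvrl1* UMI was counted in B cell-like cells. Endothelial cells are the known site of ALK1. Their 6 markers had 0 UMIs in control and 22 UMIs over 4 markers in AdipoΔ/Δ macrophage-like cells, or 6.35 CPM in sum, with *Emcn* and *Cldn5* at 0 in both. In monocyte-like cells the same markers summed to 21.5 and 25.9 CPM, over 2 and 4 markers. The part of endothelial RNA in the *Acvrl1* levels was not tested.

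The receptors through which GDF3 is known to act were scarce in these leukocytes. *Acvr1c*, which encodes ALK7, an adipocyte receptor, had 1 UMI in each library over all kept cells, and *Tdgf1*, the gene of the co-receptor Cripto, had none. The type II receptor genes *Acvr2a* and *Acvr2b* had 44 and 14 UMIs in the control and 55 and 34 UMIs in the AdipoΔ/Δ library.

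*Tgfbr2* (ENSMUSG00000032440, chromosome 9, 116084293 to 116175360, minus strand) encodes the type II receptor for TGF-beta. It was the member that was lower in AdipoΔ/Δ macrophage-like cells by more than counting error, with 117 CPM (90.0 to 151) in the control and 76.2 CPM (67.3 to 85.9) in the AdipoΔ/Δ library, a ratio of 0.649 (0.490 to 0.870). With both libraries weighted to one mix of populations the ratio was 0.963. M2-like cells carried most of it, with 258 CPM (195 to 334) and 207 CPM (179 to 238), a ratio of 0.803 (0.595 to 1.10), and matrix cells had 18.1 and 17.7 CPM, a ratio of 0.977 (0.365 to 3.28). Lipid-associated cells had 39.2 CPM in the AdipoΔ/Δ library and no UMI in the 13 control cells. Control macrophage-like cells carried more markers of other leukocytes, with the 7 neutrophil markers at 1396 and 157 CPM and the 7 NK cell markers at 233 and 17.0 CPM. In M2-like cells these sums were 2968 and 135 CPM and 534 and 20.3 CPM. Their part in this ratio and in the other macrophage-like ratios was not tested. In monocyte-like cells *Tgfbr2* stood at 48.1 and 58.4 CPM, a ratio of 1.22 (0.969 to 1.52). The B cell-like and T cell-like ratios of 0.856 (0.507 to 1.40) and 1.13 (0.871 to 1.47) include 1 in their intervals.

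*Smad7* (ENSMUSG00000025880, chromosome 18, 75367529 to 75395935, plus strand), the inhibitory SMAD, had its highest level in T cell-like cells. They had 144 CPM (126 to 163) and 131 CPM (112 to 151), a ratio of 0.909 (0.745 to 1.11). NK cell-like cells had 94.2 CPM (78.9 to 112) and 65.4 CPM (52.2 to 81.0), a ratio of 0.695 (0.522 to 0.919). *Smad7* stood at 47.1 and 79.0 CPM in B cell-like cells, and neutrophil-like cells were in the same range, with 40.3 CPM (29.2 to 54.3) and 58.8 CPM (39.9 to 83.4). Macrophage-like cells were near the lower end, with 3.79 CPM from 2 UMIs and 3.17 CPM from 11 UMIs, and monocyte-like cells had 10.0 CPM (7.24 to 13.6) and 4.83 CPM (2.41 to 8.65), a ratio of 0.481 (0.223 to 0.951) that lay between 0.365 and 0.540 under the alternatives tried. The *Chil3* cluster had the greater part of these, with 28 and 5 UMIs, a ratio of 0.378 (0.114 to 0.992).

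*Tgfbi* (ENSMUSG00000035493, chromosome 13, 56609523 to 56639562, plus strand) encodes a TGF-beta-induced protein of the extracellular matrix. It was high in myeloid cells and close to 0 in lymphocytes. Neutrophil-like cells had 601 and 699 CPM, a ratio of 1.16 (1.02 to 1.32). Monocyte-like cells had 505 and 523 CPM, a ratio of 1.03 (0.963 to 1.11). Macrophage-like cells had 426 and 413 CPM, a ratio of 0.970 (0.842 to 1.12). Weighted to one mix of populations it was 1.31, a higher value in the AdipoΔ/Δ library. M2-like cells stood at 647 and 655 CPM, a ratio of 1.01 (0.842 to 1.22), and matrix cells at 290 and 422 CPM, a ratio of 1.46 (1.15 to 1.87). The 13 control lipid-associated cells had 2 UMIs and the 90 AdipoΔ/Δ ones 247, at 65.1 CPM (7.89 to 235) and 211 CPM (185 to 239). Dendritic cell-like cells had 83.6 and 154 CPM, a ratio of 1.84 (1.28 to 2.66), and T cell-like cells 1.21 and 5.09 CPM.

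**Figure D4:**
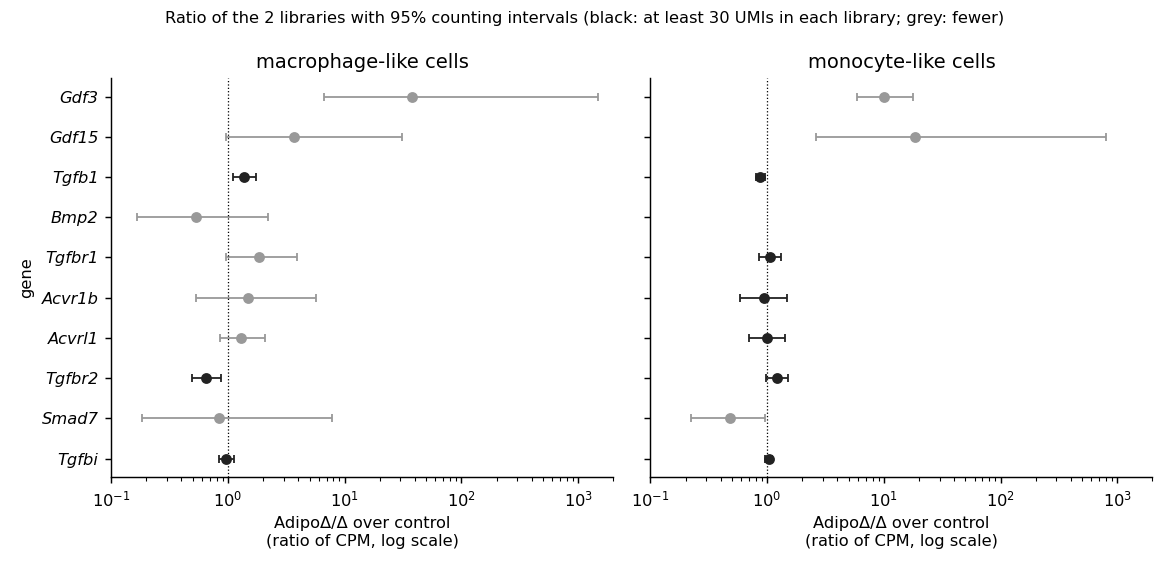
Ratio of AdipoΔ/Δ over control CPM (log x axis) of each member (y axis) in macrophage-like and monocyte-like cells, with 95% conditional binomial intervals; black points have at least 30 UMIs in each library and grey points fewer, and *Bmp2* had no UMI in monocyte-like cells. Intervals that lie wholly above 1 are those of *Gdf3* and *Tgfb1* in macrophage-like and of *Gdf3* and *Gdf15* in monocyte-like cells.

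The members were set against a list of 76 genes of the pathway and against all genes. In macrophage-like cells 8034 genes had at least 30 UMIs over both libraries. Of these, 9.04% were at least 2-fold higher and 2.85% at least 2-fold lower in the AdipoΔ/Δ library. Among the members 8 reached that depth, all but *Bmp2* and *Smad7*, and 2 were at least 2-fold higher, *Gdf3* and *Gdf15*. Since *Gdf3* was selected on this contrast, nothing is read from that count. Of the 76 list genes 31 reached the depth, 6 were at least 2-fold higher and 0 lower. The 4 beyond the members were all listed under latency and activation, and this grouping was not tested. The minimum of 30 UMIs was summed over both libraries. Macrophage-like cells held 527948 UMIs in the control and 3465548 UMIs in the AdipoΔ/Δ library. A gene with few control UMIs could thus reach the minimum through the AdipoΔ/Δ library alone, so nothing is read from the shared role. *Itgav*, the gene of the integrin alpha-v chain that helps to release TGF-beta, had 26.5 CPM from 14 UMIs and 60.9 CPM from 211 UMIs, a ratio of 2.30 (1.34 to 4.27). *Ltbp3*, *Lrrc32* and *Thbs1* had 4, 2 and 0 control and 60, 36 and 33 AdipoΔ/Δ UMIs. Their calls rest on few or no control UMIs. They are named because they are counted here, after their values were seen. None of the 4 type I receptor genes, 2 type II receptor genes, 5 SMAD genes, 4 inhibitor genes and 5 target genes that reached the depth were 2-fold apart. The median log2 ratio was 0.07 over the 31 list genes and 0.08 over all genes.

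In monocyte-like cells 8441 genes reached 30 UMIs, and 2.95% were at least 2-fold higher and 0.758% at least 2-fold lower in the AdipoΔ/Δ library. Among the members 8 reached it, all but *Gdf15* and *Bmp2*, with *Gdf3* higher and *Smad7* lower. Of the list genes 35 reached it, 5 were higher and 1 was lower. Besides *Gdf3* these were *Mmp14*, with 6.93 and 26.8 CPM, a ratio of 3.87 (2.45 to 6.24), *Tsc22d1*, with a ratio of 2.76 (1.51 to 5.12), *Id3*, with a ratio of 2.33 (1.40 to 3.89), and *Thbs1*, with a ratio of 2.17 (1.18 to 4.02), all named after their values were seen. *Mmp14* encodes a membrane protease that can release latent TGF-beta, *Thbs1* the activator thrombospondin-1, and *Id3* and *Tsc22d1* are transcriptional regulators known as targets of BMP or TGF-beta. The median log2 ratio was 0.12 over the 35 list genes and 0.07 over all genes.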

How the data were processed

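The 10 members, the 76 genes of the pathway list and the marker lists were chosen with earlier results of these data known. The authors aligned the reads to mm10, used Cell Ranger 4.0.0 to count the UMIs of each gene in each barcode, and deposited these raw counts without normalization. The annotation release is not given in the sources used here, and gene positions are those of GENCODE vM21 on GRCm38, matched by Ensembl identifier.

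Cells were the barcodes in which 200 or more genes were detected and no more than 10% of UMIs were mitochondrial. The study's limit of 2% was passed by 51.4% of control and 37.7% of AdipoΔ/Δ barcodes, and the limit was raised to 10% because under 50% of a library passed. Libraries were normalized with SCTransform, integrated by anchors on 1985 features without the list genes, and clustered on 20 principal components at a resolution of 1.0 in Seurat 5.3.0 under R 4.3.3. The 18 clusters are rebuilt and need not be those of the study. They were named by marker score, with thresholds set after the clusters were seen (a log2 score of at least 1.0, and 3 markers in at least 10% of cells), and low-depth clusters stayed unnamed. No doublet caller was run.

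UMIs were summed per population and library, and intervals were computed with SciPy 1.17.1 after a test of the ratios on simulated counts. With 1 library per group no p-value was computed. Genes were called at 2-fold where they had at least 30 UMIs in a class. Besides the members, genes were named if 2-fold apart with at least 100 UMIs, as receptors of GDF3, activins or GDF15, as one of the 5 genes most like *Gdf3*, or as markers. Other list genes counted as 2-fold apart had fewer than 100 UMIs and were named outside this rule, after their values were seen. Alternatives changed 1 choice at a time, among them filters, clustering settings, integration, scaling by TMM (edgeR 4.0.16), denominator, mix of clusters, thinning, and the top 2% of cells by UMIs left out.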

Additional observations from a re-analysis of the deposited data

Results flagged for a closer look

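*Tgfb1* differed in opposite directions between classes, and this difference was not tested. It was lower in AdipoΔ/Δ monocyte-like cells, with a ratio of 0.874 (0.802 to 0.951), and higher in NK cell-like cells, with 1.26 (1.00 to 1.59), in macrophage-like cells, with 1.38 (1.11 to 1.73), in T cell-like cells, with 1.80 (1.41 to 2.29), and in neutrophil-like cells, with 2.59 (1.88 to 3.58). In T cell-like cells mast cell or basophil markers moved from 1.82 to 296 CPM, NK cell markers from 183 to 557 CPM and monocyte markers from 634 to 1170 CPM. Other lists fell there, among them neutrophil markers from 397 to 67.6 CPM and dendritic cell markers from 232 to 140 CPM. In neutrophil-like cells macrophage markers moved from 305 to 646 CPM. The part of these markers in the *Tgfb1* differences was not tested.

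Barcodes left out of the cells, 318 in the control and 365 in the AdipoΔ/Δ library, also carried member transcripts. They were in no cluster, so their mix of cell types in each library is not known. *Gdf3* had 0 UMIs in the control and 10 UMIs, or 14.0 CPM, in the AdipoΔ/Δ library, and *Gdf15* 0 UMIs and 9 UMIs, or 12.6 CPM. *Tgfb1* had 120 and 202 CPM, *Acvrl1* 10.5 and 40.7 CPM, *Tgfbr2* 52.3 and 119 CPM, and *Tgfbi* 286 and 401 CPM. *Bmp2* had 3.48 and 7.02 CPM and *Tgfbr1* 41.8 and 50.5 CPM. *Acvr1b* had 13.9 and 12.6 CPM and *Smad7* 38.3 and 35.1 CPM. The intervals of the ratios of *Bmp2*, *Tgfbr1*, *Acvr1b* and *Smad7* include 1. *Tgfbr2* was higher in these AdipoΔ/Δ barcodes and lower in AdipoΔ/Δ macrophage-like cells, and the part of the mix of cell types was not tested.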

How the results depend on the processing

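Alternatives for monocyte-like cells, the low-depth clusters, the lipid-associated cells, the cells with a C1q UMI and the matrix cell with most *Gdf3* UMIs were chosen after seeing the data. The *Gdf3* ratio lay between 8.92 and 50.8 in macrophage-like cells over 15 alternatives and between 6.60 and 13.5 in monocyte-like cells over 14. Some macrophage values were taken against a floor of 3 counts because the control count was 0. The share of AdipoΔ/Δ macrophage-like cells with a *Gdf3* UMI was 12.9% at a mitochondrial limit of 5% and 13.1% at 2%, 3.99% after thinning to 1000 UMIs and 5.99% without lipid-associated cells, and the control share was 0% at the 5% limit. The count of list genes at least 2-fold higher in macrophage-like cells was 10 at a minimum of 10 UMIs, 2 at 100 UMIs and 11 at 1.5-fold, and the count of lower genes 1 at a mitochondrial limit of 5%, 2 at a minimum of 10 UMIs and 4 at 1.5-fold. In monocyte-like cells the higher count was 1 at a mitochondrial limit of 2%, 1 at a minimum of 100 UMIs and 9 at 1.5-fold. There the lower count was 0 at a mitochondrial limit of 2%, with at least 500 detected genes, at a resolution of 2.0, with 30 principal components and at a minimum of 100 UMIs, and 2 at a minimum of 10 UMIs and at 1.5-fold. Of 227 ratios of single members other than *Gdf3* under alternatives, 222 stayed within the counting interval of the reported ratio, and 5 did not. Intervals of rare members are wide and the alternatives share cells with the main setting, so this count says little about robustness. Scaling by TMM moved every ratio by -0.10 on the log2 scale in both classes, which took *Tgfbi*, *Tgfbr1* and *Acvrl1* in monocyte-like cells to 0.966, 0.987 and 0.940. No paired analysis was possible because each group is 1 library.

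Depth limits the rare members most. *Gdf3*, *Gdf15* and *Bmp2* rest on few control UMIs, and in macrophage-like cells only 3 members had at least 30 UMIs in each library. Control lipid-associated cells numbered 13, so no difference under 97.7 CPM could be seen there for a gene without control UMIs. The spread between mice was not measured, and all intervals are for counting error.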
